A study of Homo sapiens with 9 samples.

Results

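The MYC family and its dimer partners were described here as 8 genes, namely the MYC paralogues MYC, MYCN and MYCL, the shared partner MAX, the MAX-binding repressors MXI1, MXD4 and MNT, and the MAX-like protein MLX. They were selected on a list of the MYC family and of the MAX network that was drawn up with earlier results of these same libraries known, so their values are a description and carry no test. All 8 had a row among the 22290 genes of the table. The RNA came from IMR-32, a neuroblastoma line of human origin, grown in DMEM with 10% fetal bovine serum. The parental cells (PAR), cells labelled KD for knockdown of TRAP-1 and cells labelled OE for its overexpression gave 3 libraries each. TRAP-1 is a mitochondrial chaperone of the Hsp90 family, and the KD and OE lines had been made before; how these were made is not given in the sources used here. The values were regularized log2 values (rlog), which are scaled for library size and pulled toward the mean of each gene, most strongly where counts are low. A difference of rlog values is therefore smaller than the change in counts behind it. The depth behind each value is unknown from rlog values. No source says that the 3 libraries of a group came from separate cultures, so the p-values measure only the spread between these libraries, which may be technical. A gene was called when the limma fit over all 22290 genes gave an adjusted p under 0.05.

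TRAP1, the gene that the labels name as altered, was read first. TRAP1 had rlog values of 10.67, 10.66 and 10.65 in the parental libraries, 10.79, 10.79 and 10.83 in those labelled KD and 10.67, 10.63 and 10.74 in those labelled OE. TRAP1 was higher in the libraries labelled KD than in the parental ones by 0.14 (adjusted p = 1.8e-05 from limma, standard error of the difference 0.025). Its difference from parental in those labelled OE was 0.018 (adjusted p = 0.643 from limma). Compared directly, the libraries labelled OE differed from those labelled KD by -0.12 (adjusted p = 1.5e-04 from limma). With the median of each 20-Mb block removed, the OE difference from parental became 0.065 and was called (adjusted p = 0.0399 from limma, against 0.277 to 0.999 in the other settings). The OE difference from KD was then -0.071 (adjusted p = 0.018 from limma). Other annotated genes overlap 28.5% of the exonic bases of TRAP1, so part of its reads may be theirs. As counted, TRAP1 RNA thus did not fall in the libraries labelled KD, and KD and OE stand below for labels, also wherever a direction is given.

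MYC proteins are transcription factors that bind DNA only as a dimer with MAX, at the E-box sequence CACGTG and related sequences, and raise the transcription of genes for ribosome production, metabolism and cell division. MAX also pairs with repressors of the MXD family, with MNT and with MGA; the MXD proteins and MNT recruit SIN3 and histone deacetylases to the same sequences. MLX is a related partner that pairs with MLXIP and MLXIPL, which respond to glucose metabolites, and with some of the repressors. In neuroblastoma, amplification of MYCN marks a high-risk group, and IMR-32 is known as a line with amplified MYCN.

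MYC was the dominant paralogue in all 3 groups, and MYCN was low. In rlog values, MYC stood at 8.83, 8.86 and 8.79 in the parental libraries, 8.38, 8.41 and 8.45 in those labelled KD and 8.73, 8.69 and 8.64 in those labelled OE. Every library labelled KD lay below every parental library, and the libraries labelled OE lay between these groups without overlap. The rlog values of MYCN were 2.54, 2.46 and 2.54 in the parental libraries, 2.58, 2.61 and 2.61 in those labelled KD and 2.52, 2.50 and 2.51 in those labelled OE. These are the lowest levels of the 8 genes, and a difference of 0.081 between KD and parental is of little use at a level where rlog values are strongly pulled together. MYCL had rlog values of 5.44, 5.49 and 5.54 in the parental libraries, 5.18, 5.16 and 5.16 in those labelled KD and 5.51, 5.65 and 5.56 in those labelled OE. MYCL, the paralogue first found in lung cancer, was lower in every library labelled KD than in every other library, while the OE and parental libraries overlapped.

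Levels of different genes were compared per length, as the group mean rlog minus the log2 of the exon-union length in kb. In the parental libraries this level was 6.22 for MYC, 3.18 for MYCL and 1.05 for MYCN. MYC thus stood 3.04 log2 units above MYCL and 5.16 above MYCN, and the order held with the length of the longest transcript (3.26 and 5.80). Of the summed per-length level of the 3 paralogues, taken back from the log2 scale, MYC held 87.0% in the parental libraries, 85.6% in those labelled KD and 85.3% in those labelled OE. MYCN held 2.43%, 3.37% and 2.61%. Of 22195 genes with a known length, 56.6% lay below MYC in the parental libraries, 31.8% below MYCL and 14.0% below MYCN.

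**Figure D1:**
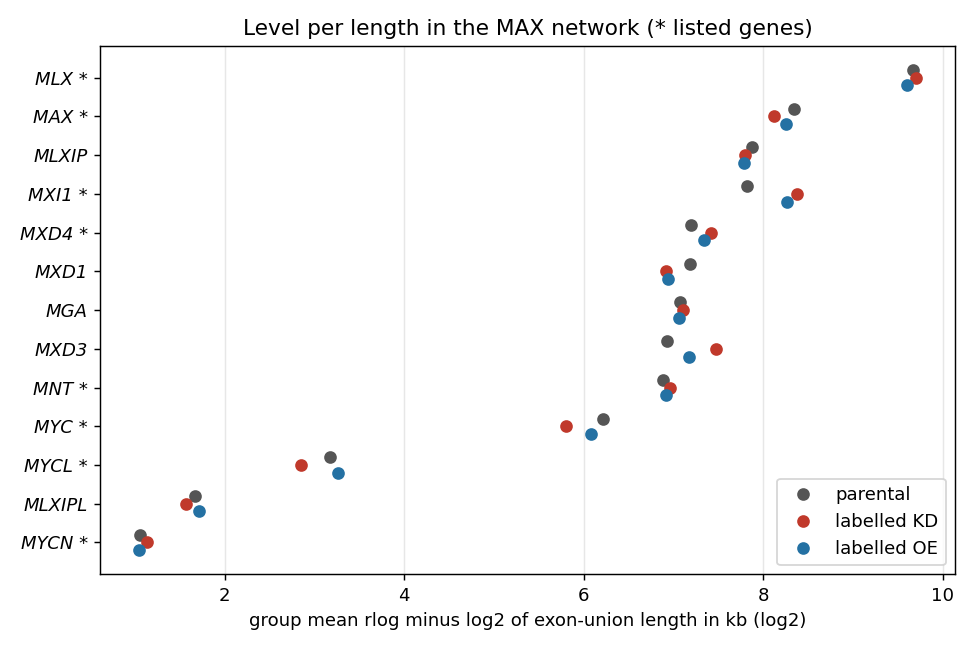
Group mean rlog minus log2 of the exon-union length in kb (x axis, log2) for the 8 listed genes and the other 5 genes of the MAX network, with a point for each group. MYC lies at 6.22 in the parental libraries, above MYCL at 3.18 and MYCN at 1.05, and below MAX at 8.34 and MLX at 9.67.

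MYCN was low in libraries that the paper assigns to a line known for amplified MYCN, and the reason was not tested. The genes next to MYCN were read in the same way. DDX1, an RNA helicase gene that often lies within the MYCN amplicon, had a per-length level of 10.07 in the parental libraries, and NBAS, a vesicle transport gene that can also lie in it, had 6.80. TRIB2, a pseudokinase gene on the same arm, stood at 11.01, VSNL1 at 6.76 and CYRIA at -0.38. MYCNOS, MYCNUT and GACAT3 were not analysed here. Against parental, DDX1 differed by -0.12 in the libraries labelled KD (adjusted p = 2.9e-09 from limma) and by -0.026 in those labelled OE (adjusted p = 0.144), while NBAS rose by 0.25 and 0.18 and TRIB2 by 0.54 and 0.30. VSNL1 rose by 0.52 in the libraries labelled KD and differed by -0.039 in those labelled OE (adjusted p = 0.409). CYRIA was not called against parental, although its KD difference had adjusted p-values of 0.0494 to 0.295 from limma in other settings. Nothing was measured here on the DNA copies of MYCN.

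The label of a neuroblastoma line was set against marker genes of both cell states that neuroblastoma lines are known to take. Of 21 markers of the adrenergic state, 14 had a row, with a median per-length level of 3.64 in the parental libraries. HAND1, TBX2, DBH, DDC, STMN2, ELAVL4 and RET were not analysed here. Among the core factors, PHOX2A stood at 0.49 per length, HAND2 at 4.51, GATA3 at 5.48, GATA2 at 6.97 and ISL1 at 7.87, the most abundant marker of the list over the 9 libraries. TH, the first enzyme of catecholamine synthesis, stood at 1.17. All 12 markers of the mesenchymal state had a row, with a median of 10.02. VIM, an intermediate filament gene, was the most abundant at 13.35, and the transcription factors FOSL1, MEOX2 and PRRX1 stood at 12.85, 11.23 and 8.66. The adrenergic list thus spread widely: 10.3% of genes lay below PHOX2A and 14.8% below TH, but 63.7% below GATA2 and 73.3% below ISL1. The mesenchymal list reached from 45.6% below RUNX2 to 99.6% below VIM. The paper reports that the line was authenticated, and whether these libraries come from it was not tested here.

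Markers of other cell types were read from lists as well. The list of Schwann and glial markers had 3 of 4 genes with a row, of which ERBB3, a receptor of neuregulins, was the most abundant at 10.43 per length, with S100B at 10.24; SOX10 was not analysed here. Of 14 epithelial markers 10 had a row, led by the keratin gene KRT18 at 10.45, while EPCAM stood at 1.31, and CDH1, KRT19, CLDN3 and CLDN7 were not analysed here. Of 6 haematopoietic markers 4 had a row, with LAPTM5 highest at 3.68 and PTPRC at -1.30; CD3E and HBG1 were not analysed here. Of 7 hepatocyte markers 3 had a row, with SERPINA1 highest at 7.07 and HNF4A at -1.69; ALB, AFP, APOA1 and APOB were not analysed here.

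**Figure D2:**
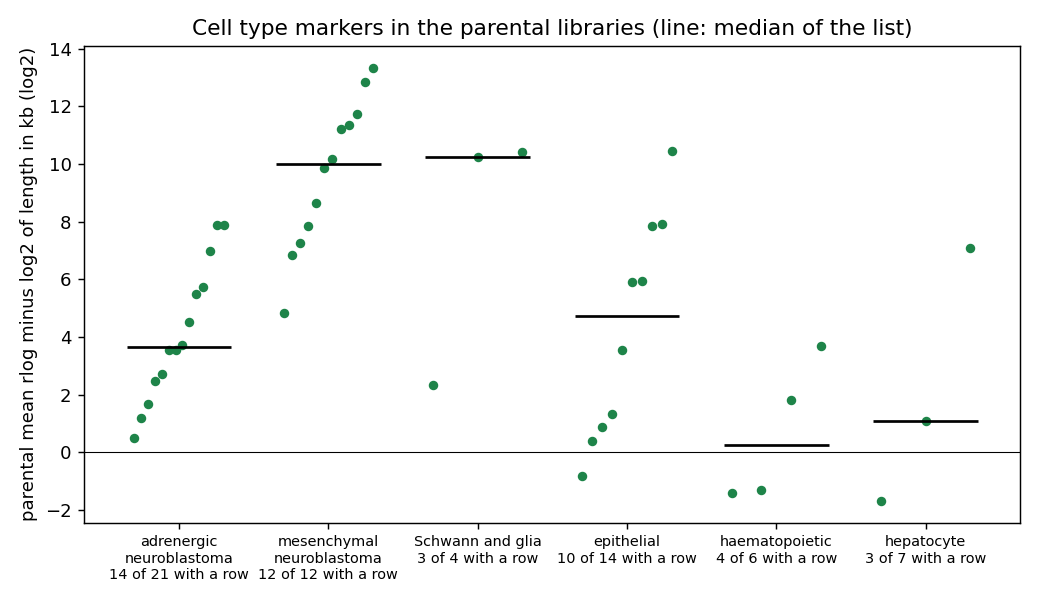
Parental mean rlog minus log2 of the exon-union length in kb (y axis, log2) for each marker with a row (points), by list, with the list median as a line. The mesenchymal list has a median of 10.02 and the adrenergic list 3.64.

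The marker lists also differed between the groups, and fewer cells of a type cannot be told apart from less RNA per cell in bulk RNA. Summed over the mesenchymal list, the values taken back from the log2 scale were 157204, 157459 and 157777 in the parental libraries, 174323, 174556 and 173512 in those labelled KD and 176866, 176125 and 177845 in those labelled OE. Such a sum, here and for the lists that follow, rests mostly on the most abundant genes of the list. Of the 12 mesenchymal genes, 7 rose and 3 fell in the libraries labelled KD, with a median difference of 0.084, where 26.9% of all genes rose and 26.9% fell. In those labelled OE 8 rose and 2 fell, with a median of 0.22, where 16.9% of all genes rose and 18.0% fell. PRRX1 rose by 1.29 with KD and 0.69 with OE, VIM by 0.36 and 0.15, while FOSL1 fell, with -0.72 and -0.52. FN1, the gene of fibronectin, fell with KD (-0.96) and rose with OE (0.55).

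The adrenergic list summed to 3939, 3857 and 3888 in the parental libraries, 3111, 3115 and 3170 in those labelled KD and 4135, 4241 and 4246 in those labelled OE. Of its 14 genes, 2 rose and 7 fell with KD (median difference -0.11). With OE, 1 rose and 4 fell (median -0.044), although the sum was higher than in the parental libraries. The shares of all genes given for the mesenchymal list hold here and for the lists that follow. NCAM1, a neural adhesion gene, rose by 1.39 with KD and fell with OE (-0.45), and L1CAM moved the other way (-0.93 and 0.34). The Schwann and glial list summed to 18622, 18442 and 18218 in the parental libraries, 22340, 22574 and 22098 in those labelled KD and 20264, 20428 and 20444 in those labelled OE, with 1 gene higher (ERBB3) and 0 lower with KD, and 2 higher and 0 lower with OE. ERBB3 and S100B differed by 0.31 and 0.0057 with KD and by 0.13 and 0.29 with OE. With the 20-Mb block medians removed, the KD difference of S100B was 0.11 and called. The epithelial list summed to 7612, 7679 and 7589 in the parental libraries, 7904, 8152 and 8261 in those labelled KD and 7122, 7098 and 7147 in those labelled OE, with 2 genes higher and 1 lower with KD and 2 higher and 3 lower with OE. Its KD counts reached 4 higher and 2 lower in other settings. Of the haematopoietic list LAPTM5 alone was called, lower with KD (-0.14), in a list that summed to 56.9, 57.3 and 60.5 in the parental libraries, 54.5, 54.2 and 54.0 in those labelled KD and 60.0, 56.3 and 56.3 in those labelled OE. This call was lost without PAR replicate 3 and with 20-Mb block medians removed (adjusted p = 0.0518 from limma). Of the hepatocyte list SERPINA1 alone was called, lower with KD (-0.32) and with OE (-0.49), in a list that summed to 675, 688 and 642 in the parental libraries, 528, 528 and 553 in those labelled KD and 446, 505 and 488 in those labelled OE. The part of any of these markers in the values of the MYC family below was not tested.

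MAX, without which the MYC proteins do not bind DNA, had the smallest spread of the 8 genes within the parental group (SD 0.0062). In rlog values, MAX stood at 10.98, 10.98 and 10.99 in the parental libraries, 10.77, 10.74 and 10.78 in those labelled KD and 10.89, 10.93 and 10.89 in those labelled OE. The 3 groups did not overlap, with the libraries labelled KD lowest and the parental ones highest. The difference from parental was -0.22 (standard error 0.022) with KD and -0.085 with OE. In MYC it was -0.41 (standard error 0.035) and -0.14, and in MYCL -0.33 (standard error 0.048) and 0.086. The libraries labelled OE were above those labelled KD by 0.28 in MYC, 0.41 in MYCL and 0.14 in MAX.

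The MAX-binding repressors MXI1 and MXD4 stood higher in the libraries labelled KD and OE, where MYC and MAX stood lower. The rlog values of MXI1 were 10.36, 10.39 and 10.42 in the parental libraries, 10.96, 10.94 and 10.93 in those labelled KD and 10.84, 10.85 and 10.81 in those labelled OE. No library labelled KD or OE came near the parental range, and those labelled KD lay above those labelled OE. MXI1, also called MXD2, thus differed from parental by 0.55 (standard error 0.023) with KD and by 0.44 with OE, the largest differences of the 8 genes in these comparisons. MXD4 had rlog values of 9.996, 9.960 and 9.965 in the parental libraries, 10.200, 10.191 and 10.204 in those labelled KD and 10.077, 10.125 and 10.157 in those labelled OE. MXD4 showed the same order of groups, with 0.22 (standard error 0.026) and 0.15.

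MNT, a repressor that many tissues express, moved little. In rlog values, MNT stood at 10.03, 9.99 and 10.01 in the parental libraries, 10.08, 10.09 and 10.06 in those labelled KD and 9.95, 10.06 and 10.11 in those labelled OE. The libraries labelled KD lay just above the parental ones, by 0.070 (standard error 0.031), and those labelled OE overlapped both groups. Without OE replicate 1 the OE difference was 0.078, and without OE replicate 3 it was -0.0038, against 0.032 with all libraries. The rlog values of MLX were 11.77, 11.78 and 11.73 in the parental libraries, 11.78, 11.81 and 11.78 in those labelled KD and 11.71, 11.65 and 11.70 in those labelled OE. MLX differed by 0.034 (standard error 0.020) with KD, where the groups were just apart, and by -0.069 with OE, where all libraries lay below the parental ones. Other annotated genes overlap 18.2% of the exonic bases of MLX, 16.1% of MAX and 12.2% of MNT, and the strand setting of the counting is not stated, so part of their reads may belong to those genes.

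**Figure D3:**
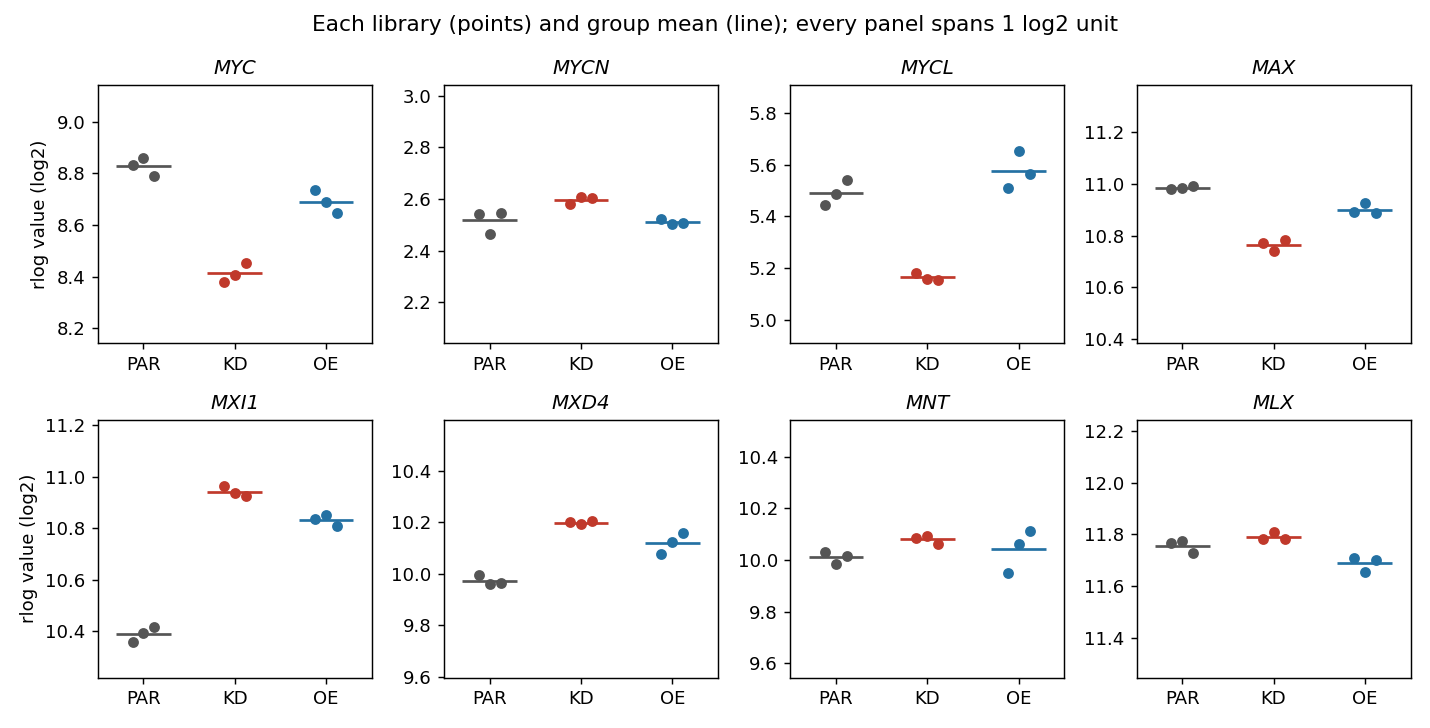
The rlog value (y axis, log2) of the 8 genes in each of the 9 libraries (points) with the group mean (line), by group (x axis), with each panel spanning 1 log2 unit. MYC, MYCL and MAX are lowest and MXI1 and MXD4 highest in the libraries labelled KD.

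Within a library the difference between the rlog values of a repressor and of MYC does not rest on gene length when it is compared across groups. MXI1 minus MYC was 1.56 ± 0.055 (SD, n = 3) in the parental libraries, 2.53 ± 0.057 in those labelled KD and 2.14 ± 0.035 in those labelled OE, a shift of 0.97 and 0.58 log2 units. For MXD4 minus MYC the shifts were 0.64 and 0.28. MAX minus MYC shifted by 0.19 with KD and by 0.053 with OE, where its values overlapped the parental ones. With the median of each 20-Mb block removed, MAX fell more than MYC with KD (-0.24 and -0.18), so which of them was lowered more depends on that choice. MXD4 then rose by 0.20, so with MYC at -0.18 its shift against MYC was smaller too. Per length, the parental order from the top was MLX (9.67), MAX (8.34), MXI1 (7.83), MXD4 (7.19), MNT (6.89), MYC, MYCL and MYCN, and each step was larger than the spread between replicates. With KD, MXI1 (8.38) stood above MAX (8.12), and with OE these genes lay within their spread (8.27 and 8.26). With the length of the longest transcript they were nearly level with KD (9.15 and 9.11), and MXI1 lay below MAX with OE (9.04 and 9.24), so their order depends on the length used.

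In the fit over all genes, 3 of the 8 were called higher and 3 lower with KD against parental, where 53.7% of all 22290 genes were called, 26.9% higher and 26.9% lower. With OE against parental, 2 were called higher and 3 lower, where 34.8% of all genes were called, 16.9% higher and 18.0% lower. With OE against KD, 3 were called higher and 4 lower, where 47.3% of all genes were called, 23.5% higher and 23.8% lower. With the median of each 20-Mb block removed, 2 were called higher and 3 lower with OE against KD, as MYC and MXD4 lost their calls. Calls of single genes also changed in other settings: MYCN with KD was lost without PAR replicate 2, MLX with OE without OE replicate 2 and MXD4 for OE against KD without OE replicate 1. MNT was called higher with KD in the fit of 2 groups, with the replicate number as a block, after the filter on low values, and without OE replicate 1 or 3. It was also called higher with OE when OE replicate 1 was left out. Nothing is read from these counts, since the genes were listed with the results known. The KD and OE comparisons share the parental libraries.

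The promoters of the listed genes were read from RefSeq, as 250 bases before to 50 after the start (GRCh38.p14). CACGTG, which reads the same on both strands, was found in 1522 of 13256 genes with a row and a promoter entry (11.5%). All listed genes but MYC had an entry, and it was found in MXD4, MNT and MLX. It was not found in the windows of MAX, MXI1, MYCN and MYCL. The stretches with the motif in capitals are shown because they carry the sequence that dimers of MYC, MAX and the repressors are known to bind; it lies at -238 to -233 from the start in MXD4, at -193 to -188 in MNT and at -50 to -45 in MLX. A match is a description of the sequence and not a bound site.
MXD4 (chr4:2262312-2262359, minus strand): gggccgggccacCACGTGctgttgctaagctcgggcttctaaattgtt
MNT (chr17:2401218-2401283, minus strand): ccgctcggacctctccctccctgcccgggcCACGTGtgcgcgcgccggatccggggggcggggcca
MLX (chr17:42567020-42567085, plus strand): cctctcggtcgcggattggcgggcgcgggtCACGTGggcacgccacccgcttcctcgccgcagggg
Of these, MXD4 was higher with KD by 0.22 and with OE by 0.15, MNT differed by 0.070 and 0.032, and MLX by 0.034 and -0.069.

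The other genes of the MAX network and the targets of MLX were also listed with earlier results of these data known, so their p-values are given as a description. MXD3, a repressor of the same family as MXI1, rose from 9.18 ± 0.043 (SD, n = 3) in the parental libraries to 9.73 ± 0.054 (SD, n = 3) with KD, a difference of 0.55 (adjusted p = 4.0e-16 from limma), and to 9.42 ± 0.011 (SD, n = 3) with OE, a difference of 0.24 (adjusted p = 1.7e-07). Other genes overlap 43.7% of its exonic bases, so its reads are uncertain. MXD1, which is known to rise when cells stop dividing and differentiate, fell instead, with -0.27 (adjusted p = 2.0e-08) and -0.25 (adjusted p = 1.7e-07). MLXIP, the MLX partner also called MondoA, fell slightly with KD (-0.079, adjusted p = 5.8e-04) and with OE (-0.10, adjusted p = 1.0e-04). With the 20-Mb block medians removed, its KD difference was -0.037 and not called (adjusted p = 0.0886, against 1.4e-04 to 0.00475 in the other settings). MLXIPL, the partner known from liver as ChREBP, was low at 3.94 ± 0.041 (SD, n = 3), and its KD difference of -0.11 (adjusted p = 0.0416) lost its call without any of 5 single libraries. MGA, the largest protein of the network, passed no test in either comparison (0.035 and -0.012).

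The 2 genes listed as targets of MLX with its glucose-sensing partners, TXNIP and ARRDC4, rose in both groups. TXNIP, an inhibitor of thioredoxin and of glucose uptake, went from 11.04 ± 0.019 (SD, n = 3) to 11.74 ± 0.012 (SD, n = 3) with KD and 11.60 ± 0.0068 (SD, n = 3) with OE, differences of 0.70 (adjusted p = 2.0e-24 from limma) and 0.56 (adjusted p = 8.2e-21). ARRDC4, a related arrestin-domain gene, rose by 0.35 (adjusted p = 1.7e-12) and 0.17 (adjusted p = 1.3e-05). Over the same comparisons MLX differed by 0.034 and -0.069.

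The position of each gene was read beside its value. MYC lies on chromosome 8 of GRCh38 (chr8:127735434-127742951, plus strand), and the 47 genes within 10 Mb with a mean rlog of at least 5 had a median difference of -0.24 with KD against parental, with 85.1% of them above MYC. With OE their median was -0.035. With the median of each 20-Mb block removed, the KD difference of MYC was -0.18 in place of -0.41, the OE difference -0.10 in place of -0.14, and the OE difference from KD 0.081 in place of 0.28. MYC then stayed called against parental (adjusted p = 6.8e-05 with KD and 0.0314 with OE from limma). It lost its call for OE against KD (adjusted p = 0.0541 from limma). The cause of the lower values around MYC was not tested. PVT1, a long noncoding RNA gene beside MYC, was not called with KD: it went from 10.25 ± 0.048 (SD, n = 3) to 10.19 ± 0.043 (SD, n = 3) with KD (-0.056, adjusted p = 0.101 from limma) and fell, like MYC, by 0.21 with OE (adjusted p = 2.5e-07). Without PAR replicate 3 or KD replicate 3 it was called lower with KD, and with block medians removed its KD difference was 0.18 and called (adjusted p = 1.8e-06 from limma), so its direction depends on that choice. CASC8, which is low at 4.15 ± 0.054 (SD, n = 3), was higher with KD (0.24, adjusted p = 1.7e-05). With block medians removed its KD difference was 0.47, and its OE difference of 0.10 (adjusted p = 0.0742) became 0.14 and was called (adjusted p = 0.00883 from limma). In the other settings the adjusted p of its OE difference ranged from 0.0409 to 0.284, so some of these called it as well. CASC11 was near the floor of the table at 2.17 ± 0.034 (SD, n = 3), and CCAT1 was not analysed here.

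The neighbours of the other genes had medians near 0. MXI1 (chr10:110207605-110287365, plus strand) differed by 0.55 with KD while 103 neighbours had a median of -0.0090, and 3.88% of these lay above it; with OE the share was 0.971%. MYCL (chr1:39895428-39902256, minus strand) differed by -0.33 against a median of -0.016 of 198 genes. MAX (chr14:65006174-65102695, minus strand) differed by -0.22 against 0.019 of 107. MXD4 (chr4:2247432-2262109, minus strand) differed by 0.22 against -0.034 of 83. The values of MYCN (chr2:15940550-15947007, plus strand), MNT (chr17:2384073-2401104, minus strand) and MLX (chr17:42567072-42573239, plus strand) lay within the middle 50% of their neighbours with KD.

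**Figure D4:**
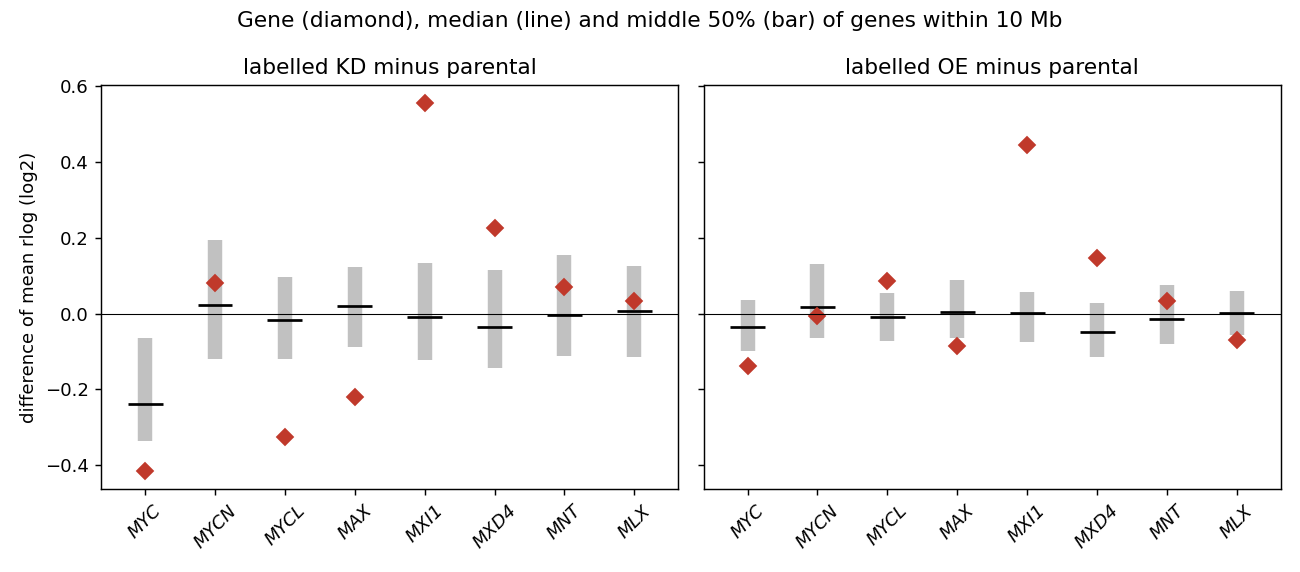
Difference of the group mean rlog (y axis, log2) of each of the 8 genes (diamonds) beside the median (line) and the middle 50% (bar) of genes within 10 Mb, for the libraries labelled KD (left) and OE (right) against parental. The neighbours of MYC have a median of -0.24 with KD, and MXI1 lies far above the middle 50% of its own neighbours in both panels.

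Of the genes that MYC is known to induce for ribosome production, more fell than rose against parental; the lists of targets and cofactors were chosen with results known, so their counts and p-values are given as a description. Of 34 listed genes 29 had a row, and 23 of these fell and 4 rose with KD against parental, with a median difference of -0.19, where the median of all genes was -5.1e-04, 26.9% of all genes rose and 26.9% fell. With OE, 18 fell and 2 rose, with a median of -0.11, where 16.9% of all genes rose and 18.0% fell. Against KD, 16 were higher and 2 lower with OE, with a median of 0.064, where 23.5% of all genes were higher and 23.8% lower. RRP9, a U3 snoRNP component, fell from 11.04 ± 0.013 (SD, n = 3) to 10.44 ± 0.051 (SD, n = 3) with KD (adjusted p = 1.1e-19 from limma) and to 10.91 ± 0.035 (SD, n = 3) with OE (adjusted p = 8.5e-05). NOP56, a core protein of box C/D snoRNPs, had differences of -0.49 (adjusted p = 5.7e-22) and -0.31 (adjusted p = 5.0e-16); with the 20-Mb block medians removed the latter was -0.20, still called. GNL3, which codes for nucleostemin, fell with KD (-0.46, adjusted p = 5.0e-21) and differed by -0.017 with OE (adjusted p = 0.495). MRTO4, needed to assemble the ribosomal stalk, had -0.40 and -0.23, both called.

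FBL, the gene of fibrillarin, rose with KD (0.12, adjusted p = 1.6e-07 from limma) and OE (0.12, adjusted p = 4.0e-07), and the others that rose with KD were POLR1B, UBTF and POLR3G; these 4 were named after their values were seen. NPM1, the most abundant gene of the list, passed no test against parental (-0.0089 and 0.020). With the 20-Mb block medians removed, 24 fell and 3 rose with KD, and the differences of RRP9 and GNL3, which lie close together on chromosome 3, became -0.34 and -0.19 and stayed called. NOP2, NOP16, PPAN, NIP7 and PA2G4 were not analysed here.

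Listed targets in metabolism and growth were described in the same way. Of 29 genes with a row of 34, 20 fell and 3 rose with KD (median -0.14), where 26.9% of all genes rose and 26.9% fell. With OE, 15 fell and 6 rose (median -0.050), where 16.9% of all genes rose and 18.0% fell, so the share that rose was near that of all genes. Against KD, 18 were higher and 5 lower with OE, where 23.5% of all genes were higher and 23.8% lower. SLC7A5, the large neutral amino acid transporter, fell from 14.62 ± 0.012 (SD, n = 3) to 13.78 ± 0.024 (SD, n = 3) with KD (adjusted p = 1.4e-30 from limma) and 14.33 ± 0.028 (SD, n = 3) with OE (adjusted p = 1.5e-17). TFRC, the transferrin receptor, had differences of -0.72 and -0.35, and the glutamine transporter SLC1A5 -0.38 and -0.18. ODC1, the first enzyme of polyamine synthesis, had -0.28 and -0.38. HK2, a hexokinase that starts glycolysis, rose instead, by 0.48 (adjusted p = 3.8e-23) and 0.39 (adjusted p = 7.5e-20), as did ENO1, by 0.18 and 0.10. TYMS also rose with KD, and PAICS, IMPDH2, SHMT1 and LDHA with OE. PKM, a pyruvate kinase of glycolysis, was just called lower (-0.020, adjusted p = 0.0434, and -0.022, adjusted p = 0.0375, both from limma), with OE and parental libraries that overlapped. Other annotated genes overlap 47.9% of the exonic bases of TYMS, 32.8% of IMPDH2 and 23.8% of SLC1A5. Part of the reads counted for TYMS, IMPDH2 and SLC1A5 may thus belong to other genes. EIF4A1, HSPE1, PHB1, NME1 and DCTPP1 were not analysed here.

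CACGTG was found in 12 of 22 promoters of the ribosome production list that had an entry and in 11 of 24 of the metabolism and growth list, against 11.5% of all genes with an entry. These lists hold genes known as MYC targets, so the share is not independent of the E-box. Of the listed targets named above, RRP9, GNL3, MRTO4, FBL, SLC7A5, SLC1A5, ODC1, HK2, PAICS and LDHA carry it, and ARRDC4 does among the targets of MLX, while the windows of NOP56, NPM1, UBTF, POLR1B, TFRC, ENO1, TYMS, SHMT1, PKM and TXNIP do not, and POLR3G and IMPDH2 have no entry. The stretches are shown, with CACGTG in capitals, because they hold the E-box in the promoters of targets described here, some of which rose and some of which fell.
RRP9 (chr3:51941874-51941939, minus strand): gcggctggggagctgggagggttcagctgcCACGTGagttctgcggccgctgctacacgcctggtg
GNL3 (chr3:52686008-52686073, plus strand): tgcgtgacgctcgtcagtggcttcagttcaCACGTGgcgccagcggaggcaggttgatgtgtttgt
MRTO4 (chr1:19251789-19251854, plus strand): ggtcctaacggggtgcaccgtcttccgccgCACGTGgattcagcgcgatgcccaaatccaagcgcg
FBL (chr19:39846338-39846403, minus strand): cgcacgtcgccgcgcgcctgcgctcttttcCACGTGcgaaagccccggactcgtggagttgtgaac
SLC7A5 (chr16:87869602-87869667, minus strand): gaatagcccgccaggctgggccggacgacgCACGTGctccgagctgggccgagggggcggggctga
SLC1A5 (chr19:46787308-46787373, minus strand): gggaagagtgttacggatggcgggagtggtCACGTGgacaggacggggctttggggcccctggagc
ODC1 (chr2:10448006-10448071, minus strand): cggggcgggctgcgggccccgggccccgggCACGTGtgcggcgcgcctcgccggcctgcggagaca
ODC1 (chr2:10447972-10448037, minus strand): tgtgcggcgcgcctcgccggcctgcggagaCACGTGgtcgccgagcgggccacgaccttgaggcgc
HK2 (chr2:74834946-74835011, plus strand): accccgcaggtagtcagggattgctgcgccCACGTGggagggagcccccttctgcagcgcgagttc
HK2 (chr2:74834991-74835056, plus strand): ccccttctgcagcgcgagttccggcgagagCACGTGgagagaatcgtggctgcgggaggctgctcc
PAICS (chr4:56435762-56435801, plus strand): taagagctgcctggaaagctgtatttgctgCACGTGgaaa
LDHA (chr11:18394348-18394413, plus strand): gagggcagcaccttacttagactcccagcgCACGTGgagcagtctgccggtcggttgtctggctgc
LDHA (chr11:18394446-18394511, plus strand): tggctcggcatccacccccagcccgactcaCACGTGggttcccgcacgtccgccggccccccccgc
ARRDC4 (chr15:97960463-97960528, plus strand): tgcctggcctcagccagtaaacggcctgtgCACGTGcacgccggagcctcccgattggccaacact
The motif lies at -5 to 1 from the start in RRP9, over the start itself, and just after it at 7 to 12 in GNL3, at 15 to 20 in MRTO4 and at 7 to 12 in FBL. It lies at -130 to -125 in SLC7A5 and at -50 to -45 in SLC1A5. In ODC1 it lies at -29 to -24 and at 6 to 11, in HK2 at -194 to -189 and at -149 to -144, in PAICS at 41 to 46, in LDHA at -185 to -180 and at -87 to -82, and in ARRDC4 at -210 to -205.

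**Figure D5:**
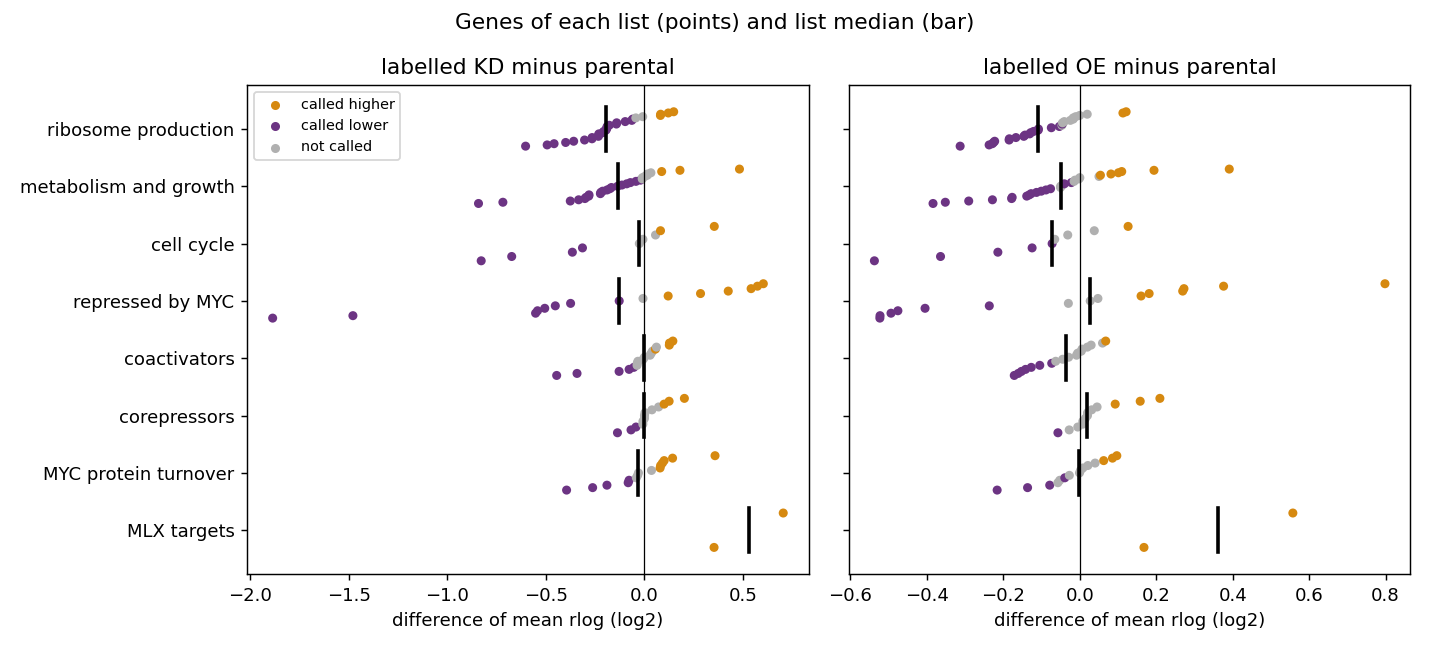
Difference of the group mean rlog (x axis, log2) of each gene (points, coloured by call) and the list median (bar) for 8 lists, for the libraries labelled KD (left) and OE (right) against parental; the x axes differ. The ribosome production list has a median of -0.19 with KD and -0.11 with OE, and the genes listed as repressed by MYC spread widely to both sides.

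Of 9 cell cycle targets with a row of 10, 4 fell and 2 rose with KD, where 26.9% of all genes rose and 26.9% fell. With OE, 5 fell and 1 rose, where 16.9% of all genes rose and 18.0% fell. E2F1, a transcription factor of the entry into S phase, fell from 11.14 ± 0.025 (SD, n = 3) to 10.32 ± 0.029 (SD, n = 3) with KD (adjusted p = 4.5e-24 from limma) and 10.61 ± 0.019 (SD, n = 3) with OE (adjusted p = 2.6e-18). With the 20-Mb block medians removed, its KD difference went from -0.83 to -0.55 and its OE difference from KD from 0.29 to 0.11, all called. The phosphatase gene CDC25A had differences of -0.67 and -0.36, both called. CDC25A lies on the same stretch of chromosome 3 as RRP9, and with the 20-Mb block medians removed its KD difference was -0.41, still called. The OE difference of CDC25A from KD went from 0.31 to 0.031 and lost its call (adjusted p = 0.234). TERT, the catalytic part of telomerase, rose with KD (0.35, adjusted p = 1.5e-10) and differed by -0.065 with OE (adjusted p = 0.152). Without OE replicate 2, 3 of these genes in place of 5 fell with OE. CCND2 was not analysed here.

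Genes that MYC is known to repress did not move in a single direction. Of 15 with a row of 16, 6 rose and 8 fell with KD (median -0.13), where 26.9% of all genes rose and 26.9% fell. With OE, 6 rose and 6 fell (median 0.027), where 16.9% of all genes rose and 18.0% fell. NDRG1, which is known to respond to hypoxia and stress, rose by 0.43 with KD and 0.80 with OE. With the 20-Mb block medians removed, its KD difference was 0.66, and its OE difference from KD went from 0.37 to 0.18. DKK3 had the largest rise of the list with KD (0.60) and rose by 0.27 with OE, and NDRG2 rose by 0.57 and 0.38. The cell cycle inhibitors CDKN1B and CDKN2C rose by 0.28 and 0.54 with KD. CDKN1A, the inhibitor p21, fell by 0.54 with KD and by 0.48 with OE. CDKN1A and CDKN1B were named after their values were seen. The largest decreases were those of DKK1, a secreted Wnt inhibitor (-1.89 and -0.52), and THBS1, the gene of thrombospondin 1 (-1.48 and -0.52). All these differences were called by limma. CDKN2B was not analysed here.

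The cofactors of MYC and of the MXD proteins had medians nearer 0 than the lists for ribosome production and metabolism. Of 18 coactivators, 4 rose and 5 fell with KD (median -0.0032), where 26.9% of all genes rose and 26.9% fell. With OE, 1 rose and 7 fell (median -0.037), where 16.9% of all genes rose and 18.0% fell. Against KD, 2 coactivators were higher and 9 lower with OE (median -0.052), where 23.5% of all genes were higher and 23.8% lower. WDR5, a histone methyltransferase subunit that binds MYC, fell with KD (-0.45, adjusted p = 4.1e-19 from limma) and OE (-0.17, adjusted p = 1.4e-08), and so did CDK9, the kinase that releases paused polymerase (-0.34 and -0.14). They lie on chromosome 9, and with the 20-Mb block medians removed their KD differences became -0.11, still called, and -0.0079, not called (adjusted p = 0.777, against 5.0e-16 to 2.5e-07 in the other settings). The OE difference of WDR5 became -0.075, and its OE difference from KD went from 0.27 to 0.036 and lost its call (adjusted p = 0.119). The OE difference of CDK9 became -0.045 and lost its call as well (adjusted p = 0.108). Of 13 corepressors, 3 rose and 3 fell with KD, and 3 rose and 1 fell with OE, beside the same shares of all genes. The count that fell with OE ranged from 0 to 2 in the other settings. SIN3A, the scaffold that MXI1 and MXD4 recruit, rose with KD (0.20, adjusted p = 1.2e-10) and differed by 0.045 with OE (adjusted p = 0.0711, with 0.0397 to 0.327 in the other settings). ARID4A (0.13) and SAP30 (0.10) also rose with KD, while RBBP7 (-0.14), SIN3B (-0.068) and HDAC1 (-0.043) fell. SIN3B was called lower with OE as well (-0.057), with groups that overlapped in both comparisons. With the 20-Mb block medians removed, ARID4A, SAP30 and HDAC1 lost their calls with KD.

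Of 15 genes with a row of 16 that control the stability of MYC proteins, 6 rose and 5 fell with KD, where 26.9% of all genes rose and 26.9% fell. With OE, 3 rose and 4 fell, where 16.9% of all genes rose and 18.0% fell; the count that fell with OE ranged from 2 to 6 in the other settings. GSK3B, the kinase that marks MYC for degradation, rose by 0.36 with KD (adjusted p = 8.8e-19 from limma) and 0.063 with OE (adjusted p = 0.00242). With the 20-Mb block medians removed, its OE difference was 0.029 and not called (adjusted p = 0.168, against 3.3e-04 to 0.036 in the other settings). FBXW7, the ubiquitin ligase subunit that then binds MYC, was lower with KD (-0.083, adjusted p = 0.0309) with groups that overlapped. SET, an inhibitor of the phosphatase PP2A, fell with KD (-0.39, adjusted p = 6.4e-22), and USP36, a nucleolar deubiquitinase of MYC, fell by 0.26 with KD and by 0.22 with OE. SET also lies on chromosome 9, and without the block median its KD difference was -0.061. TRIM32 was not analysed here. These are RNA values only.

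The genes most like MYC over the 9 libraries, by Pearson's r among 9945 other genes with a symbol and a mean rlog of at least 8, were FAM118B (0.997), ABCE1 (0.995), SF3A3 (0.994), SAR1A (0.994) and DLEU2 (0.992). ABCE1, a factor that splits ribosomes after translation, differed from parental by -0.28 with KD and -0.094 with OE. An r of at least 0.95 with MYC was reached by 729 genes (7.33%), since the 9 libraries fall into 3 groups and their means set most of each r. The genes most like MXI1 were MEOX2 (0.998), NFATC4 (0.998), WWTR1 (0.997), TXNIP (0.996) and DYNC2I1 (0.996), with 374 genes at 0.95 or more (3.76%). MEOX2 and WWTR1, the coactivator TAZ, are on the mesenchymal marker list, and TXNIP is on the list of MLX targets. MEOX2 differed by 0.53 with KD and 0.44 with OE, NFATC4 by 0.76 and 0.63, and MXI1 by 0.55 and 0.44.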

How the data were processed

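RNA was isolated in triplicate, and libraries were made with the TruSeq RNA kit, which keeps no strand, and sequenced on NovaSeq. The authors used cutadapt for trimming, HISAT2 for mapping to GRCh38 and featureCounts (Subread) for counting, and dropped genes whose counts summed to fewer than 10; the submitters' notes also name DESeq2. Versions and annotation are not given in the sources used here. The deposited values are rlog values on the log2 scale of 22290 genes in 9 libraries; 3 further columns were empty. Taken back from the log2 scale they summed to 34928732 to 35211774 per library.

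Groups were compared with limma 3.58.1 (R 4.3.3), letting the prior variance follow the level, with all 9 libraries, group as the only term and Benjamini-Hochberg adjustment over all genes; the script was tested on simulated data. Ensembl IDs were matched to symbols, lengths and positions of GENCODE 44 for 22195 of 22290 genes, and promoters came from RefSeq. The members and the lists (other MAX network genes, MLX targets, 3 lists of induced genes, repressed genes, coactivators, corepressors, protein turnover, neighbours of MYCN and MYC, and 6 marker lists) were chosen with earlier results of these data known, and 8 listed genes were left out of the lists later, without regard to their values. Besides the members, the rule for named genes took TRAP1, the other network genes and neighbours, up to 4 called genes of each list and comparison with the largest difference, groups that do not overlap and a mean rlog of at least 5, core adrenergic factors, the most abundant marker of each list, and the 5 genes most like MYC and MXI1; other genes were named after their values were seen. Root mean square differences were 0.058 to 0.063 between libraries of a group, so none was a copy. The alternatives were no variance trend, a mean rlog of at least 5, libraries centred on their median, only the 2 groups compared, the replicate number as a block, each library left out, removal of 20-Mb block medians, and the longest transcript as length.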

Additional observations from a re-analysis of the deposited data

How the results depend on the processing

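The number of genes called stayed within 1.5 times its value in all 45 alternatives, and with each library left out ranged from 11106 to 12030 for KD, 6857 to 7762 for OE and 9636 to 10575 for OE against KD. The replicate number as a block gave 12015, 7854 and 10623 calls. Deviations from the group mean correlated at -0.071 to 0.14 between libraries of the same number and -0.14 to 0.075 between others. Between KD and OE libraries, those of the same number had 0.12, 0.023 and 0.14, and the others -0.14 to 0.026. What the number stands for was not tested. The differences of the 8 genes moved by less than the spread between replicates in 349 of 357 alternatives. The others came from removing 20-Mb block medians, which gave MYC -0.18 with KD, -0.10 with OE and 0.081 for OE against KD, MXD4 0.20, 0.18 and -0.014, and MAX -0.24 with KD, and from centring on the library median, which gave MAX -0.10 with OE. The longest transcript as length gave a parental lead of MYC of 5.80 over MYCN and 3.26 over MYCL. Of 4122 alternatives for named genes, 3998 kept the call or its absence, and a called difference its direction; none were run for genes named only for likeness or after their values were seen. List counts moved by more than 1.5 times, or to or from 0, in 60 of 1530 alternatives, in 28 of 102 counts, most of them of few genes. Among genes called before or after it, removal of block medians reversed 8. These were SAP30 (-0.061), PVT1 (0.18) and CASC11 (0.21) with KD and SET with OE (0.057). For OE against KD they were CDK9 (-0.037), AURKA (0.056), LYAR (0.062) and CASC11 (-0.18). The removal takes the same value off every gene of a block in a group, also off low genes such as CASC11, and the reversals follow from it. The cause of the block medians was not tested. The shrinkage of low genes limits what can be read from MYCN, CASC8, CASC11, CYRIA and MLXIPL.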
